A study of Mus musculus with 8 samples.

Results

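The 9 genes described here encode proteins that make, divert, bind or respond to retinoic acid. They are the retinaldehyde dehydrogenases Aldh1a1, Aldh1a2 and Aldh1a3, the retinaldehyde reductase Dhrs3, the cellular retinoic acid-binding proteins Crabp1 and Crabp2, and the nuclear receptors Rara, Rarb and Rarg. They were taken by symbol from a table of 20793 rows, and each symbol matched 1 row. The set was chosen by name but with the FPKM values of the same 8 libraries in view, among them the high Dhrs3 of the differentiating libraries and the high Aldh1a1 of one of them. All values of the 9 genes, in every contrast, are therefore given as a description, with no test.

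RNA was sequenced from 8 libraries of brain neural progenitor cells of FvB/C57BL/6 mice. In 4 of them the cells proliferated in N2 medium with EGF and bFGF (20 ng/ml), and in the other 4 they had spent 5 days in neurobasal medium with B27. Each state had 2 non-targeted (NT) libraries, 1 FUBP1-targeted library and 1 CIC-targeted library. The proliferating libraries are called TRC and GFP (both NT), FUBP1 and CIC, and the differentiating ones 7 and GFP-D (both NT), FUBP1-D and CIC-D. The protocol describes lentiviral hairpins against FUBP1 and puromycin selection over 3 days; for the CIC-targeted and NT libraries the labels give only those words. Hairpins, clones and cultures are not identified, so the spread between libraries may be technical. The B27 supplement is sold with and without retinyl acetate, a form of vitamin A, and the labels do not say which was used. Medium and differentiation thus cannot be told apart.

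Vitamin A (retinol) reaches its active form in 2 oxidation steps. Retinol dehydrogenases turn it into retinaldehyde, in a reversible reaction that DHRS3 runs backwards, and the ALDH1A enzymes oxidize retinaldehyde irreversibly to retinoic acid. Retinoic acid is carried in the cytoplasm by CRABP proteins, is degraded by CYP26 enzymes, and binds receptors (RAR) that sit on DNA as heterodimers with RXR. Several genes of the pathway are themselves known targets of the receptors, Rarb and Dhrs3 among them. In the developing brain, retinoic acid from the meninges and other local sources takes part in patterning and in neuronal differentiation.

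The promoters of Rarb and Dhrs3 are shown because these were the members whose 4 differentiating libraries all lay above the 4 proliferating ones. RefSeq windows on GRCm38.p6, from 250 bases before to 50 bases after an annotated start, were found for 7 of the 9 genes (14 windows). They were searched on both strands for the receptor hexamer AGGTCA, for its variant with other letters AGTTCA, for the variant form written GGGTCA and for the last variant used here, GGTTCA. The windows were also searched for direct repeats of any of these hexamers at spacings of 1, 2 or 5 bases. The repeats are made of the hexamers and so overlap with them. Below are the 250 bases before the start on the gene's strand, 5′ to 3′, with every hexamer in capitals.
Rarb, chr14:16575477-16575726, minus strand: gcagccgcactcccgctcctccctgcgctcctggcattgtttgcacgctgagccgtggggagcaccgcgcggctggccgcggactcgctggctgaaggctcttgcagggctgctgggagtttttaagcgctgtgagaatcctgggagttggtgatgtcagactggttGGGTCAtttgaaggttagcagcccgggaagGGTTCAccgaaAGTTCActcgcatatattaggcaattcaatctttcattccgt
Dhrs3, chr4:144892577-144892826, plus strand: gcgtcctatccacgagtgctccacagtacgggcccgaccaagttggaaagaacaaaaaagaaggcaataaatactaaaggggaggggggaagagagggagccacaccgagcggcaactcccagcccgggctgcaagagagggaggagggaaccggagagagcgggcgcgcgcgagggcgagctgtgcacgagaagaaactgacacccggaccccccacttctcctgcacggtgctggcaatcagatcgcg

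In the Rarb window 2 of the 3 hexamers form a direct repeat spaced by 5 bases, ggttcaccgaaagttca, from base -53 to base -37 before the start. Such a repeat was found in 0.0974% of all 32851 windows and in no other window of the 9 genes. No window of these genes held a repeat at a spacing of 1 or 2, which 0.222% and 0.268% of all windows did. A single hexamer was found in 5 of the 14 windows, belonging to Aldh1a1, Rara, Rarb and Rarg, and in 43.7% of all windows. The Dhrs3 window shown held none of the 4 hexamers. These are matches of letters, and binding was not measured.

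The libraries were checked first. The FPKM values (fragments scaled by transcript length and by the number mapped in the library) of a library summed to between 426984 and 541608, and the absolute number of fragments is unknown. Low values moved in steps that were 1.18 to 1.36 times those of TRC in the differentiating libraries and 0.946 to 1.06 times in the other proliferating ones, although only 8.7% to 20.0% of the rows compared lay within 5% of these ratios. The Fubp1 transcript was lowest, at 12.4 FPKM, in the NT library GFP, and stood at 50.2 in TRC and at 34.8 in both FUBP1 and CIC, so the FUBP1 label is not borne out by its own transcript in the proliferating state. In the differentiating libraries it was lowest in FUBP1-D, at 21.6 FPKM against 24.8 in 7, 25.4 in GFP-D and 26.9 in CIC-D. Cic was at 13.3 FPKM in CIC and between 33.8 and 49.5 in the other proliferating libraries, and at 25.6 in CIC-D against 32.1 to 42 in the other differentiating ones. All 7 neural progenitor markers reached 1 FPKM, and their sum ranged from 3399 to 5047 FPKM in the proliferating and from 2908 to 4539 in the differentiating libraries. Vim and Fabp7 made up most of that sum. Fabp7 was at 1002 to 2493 FPKM in the proliferating and 98.9 to 619 in the differentiating libraries, and Msi1 at 12.4 to 26.3 and 40.6 to 53.3, both without overlap. The sum of 6 astrocyte markers was 124 to 219 and 600 to 767 FPKM. Of these markers Slc1a3, Aqp4 and Slc1a2 were higher in every differentiating than in every proliferating library, while the states overlapped in Gfap (5.73 FPKM in GFP, 5.10 in CIC-D), Aldh1l1 (89.6 in TRC, 17.6 in CIC-D) and S100b (9.16 in CIC, at most 2.08 in the differentiating libraries). Of 6 neuron markers 4 stayed under 1 FPKM everywhere (Syt1, Rbfox3, Snap25 and Dcx), as did 3 of 5 oligodendrocyte, 5 of 6 microglia and all 4 endothelial markers. In bulk RNA, fewer cells of a type and less RNA per cell cannot be told apart.

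Only 7 of the 9 genes passed the filter on low values (at least 1 FPKM in 2 libraries), as did 11968 of all rows. Aldh1a2 and Crabp2 did not. Aldh1a3 passed through its proliferating libraries alone. The order of levels between the genes, which FPKM allows because it is scaled by length, differed by library: Crabp1 led in TRC and FUBP1, Dhrs3 led in GFP-D and CIC-D, and Rarb led in GFP and 7. In CIC it was Aldh1a1, at 12.1 FPKM, just above Rarb at 11.2, and in FUBP1-D it was Aldh1a1 at 32.7, above Rarb at 25.1.

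**Figure D1:**
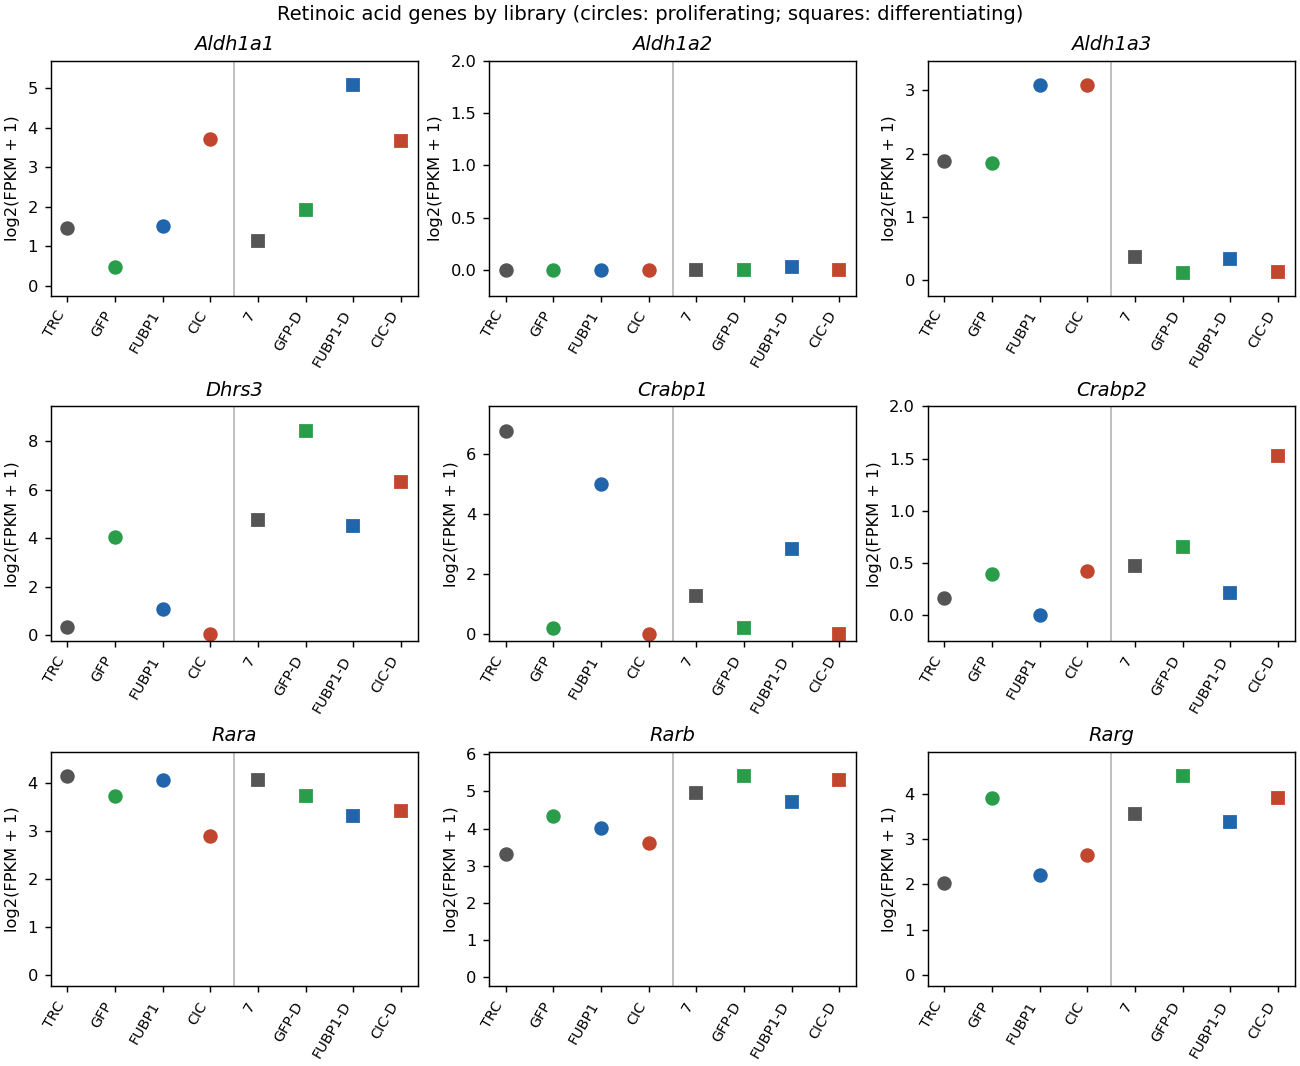
Level of each of the 9 genes as log2(FPKM + 1) on the vertical axis in the 8 libraries on the horizontal axis, 1 point per library, with its own vertical range in each panel. Colour marks the library name (green GFP and GFP-D, blue FUBP1 and FUBP1-D, red CIC and CIC-D). Grey marks the NT libraries TRC and 7, which no label links. Aldh1a3 is at 0.283 FPKM or less in all differentiating libraries, Dhrs3 spans 0.0256 to 345 FPKM, and Crabp1 reaches 1 FPKM in TRC, FUBP1, 7 and FUBP1-D alone.

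Of the enzymes that make retinoic acid, the 3 ALDH1A genes had unlike patterns. Aldh1a2 (chromosome 9, 71063595 to 71144050 in the table's mm9 coordinates), known in the embryo as the main source of retinoic acid, was listed at 0 in 7 libraries and at 0.0206 FPKM in FUBP1-D. Aldh1a3 (chromosome 7, 73535778 to 73572363) stood at 2.70 FPKM in TRC, 2.62 in GFP, 7.51 in FUBP1 and 7.54 in CIC, and at 0.283 in 7, 0.0847 in GFP-D, 0.0927 in CIC-D and 0.252 in FUBP1-D. The lowest proliferating library was 9.24 times the highest differentiating one, so the states did not overlap. Within the proliferating state both targeted libraries lay above both NT libraries, by 2.78 to 2.88 times, while the NT libraries differed by 1.03 times. In the differentiating state all 4 values were low, and neither targeted library was outside the NT range upwards or downwards.

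The mean of Aldh1a3 went from 5.09 ± 2.81 to 0.178 ± 0.104 FPKM (SD, n = 4 and 4, with NT and targeted libraries in each SD). On the log2(FPKM + 1) scale, which understates changes at low levels, the difference between the states was -2.25. With a pseudocount of 0.1 it was -4.12 and with 5 it was -0.92.

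Aldh1a1 (chromosome 19, 20676471 to 20717952), a retinaldehyde dehydrogenase that is also used as a marker of some stem and dopaminergic cells, followed neither the state nor a single label. It stood at 1.77 FPKM in TRC, 0.402 in GFP, 1.85 in FUBP1 and 12.1 in CIC, and at 1.21 in 7, 2.79 in GFP-D, 11.6 in CIC-D and 32.7 in FUBP1-D. FUBP1-D, CIC and CIC-D were thus high, and the other 5 libraries were at 2.79 FPKM or less. Both CIC-targeted libraries lay above both NT libraries of their state, by 6.84 and 30.2 times in the proliferating and by 9.62 and 4.16 times in the differentiating state. Between the CIC libraries of the states the level hardly differed (log2 difference -0.06), whereas FUBP1-D was 17.7 times FUBP1. In the proliferating state FUBP1 was 1.04 times TRC, so its place above both NT libraries there rested on a difference smaller than that between the NT libraries (4.41 times). The log2 difference between the states, 1.15 over all libraries, was 0.35 with neither FUBP1-targeted library in the comparison.

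Together the ALDH1A transcripts summed to 4.47 FPKM in TRC and 3.02 in GFP, and to 1.49 in 7 and 2.87 in GFP-D. Among these NT libraries the composition differed by state: Aldh1a3 made up 60.3% and 86.7% of the sum in TRC and GFP, and Aldh1a1 made up 81.0% and 97.1% in 7 and GFP-D. In FUBP1 Aldh1a3 made up 80.3% of a sum of 9.36 FPKM. CIC broke the pattern, with Aldh1a1 at 61.7% and Aldh1a3 at 38.3% of 19.7 FPKM, so the states overlapped in these shares. In FUBP1-D and CIC-D the share of Aldh1a1 was 99.2% in both, of sums of 33.0 and 11.7 FPKM.

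Dhrs3 (chromosome 4, 144482729 to 144517548), whose protein returns retinaldehyde to retinol and so limits retinoic acid, had the widest range. It was at 0.268 FPKM in TRC, 1.13 in FUBP1, 0.0256 in CIC and 15.5 in GFP, and at 25.7 in 7, 21.9 in FUBP1-D, 79.8 in CIC-D and 345 in GFP-D. The lowest differentiating library was 1.41 times the highest proliferating one, GFP, and that narrow margin was set by the NT library GFP. The NT libraries were far apart in each state, GFP at 57.8 times TRC and GFP-D at 13.5 times 7. The mean went from 4.23 ± 7.53 to 118 ± 154 FPKM (SD, n = 4 and 4), and the log2 difference between the states was 4.63, or 4.71 without both GFP libraries. Neither the FUBP1 nor the CIC libraries were on one side of both NT libraries in both states: CIC was below TRC and GFP, and CIC-D lay between 7 and GFP-D.

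The binding proteins divided the libraries in another way. Crabp1 (chromosome 9, 54612614 to 54620916), which sequesters retinoic acid and marks some hindbrain and neural crest cells in embryos, was at 109 FPKM in TRC and 31.0 in FUBP1, and at 1.37 in 7 and 6.11 in FUBP1-D. In GFP it was at 0.149 and in GFP-D at 0.139, and in CIC and CIC-D it was listed at 0. The 4 libraries TRC, FUBP1, 7 and FUBP1-D were all above the others, an order that 2.83% of the 11968 rows showed and that was described after the values were seen. These 4 also came first in deposition order. Over the 11968 rows TRC correlated at r = 0.980 with FUBP1 and 0.914 with GFP, and 7 at 0.959 with FUBP1-D and 0.927 with GFP-D. GFP and CIC (0.896) and GFP-D and CIC-D (0.922) were no closer than that. A part of library preparation in the order was not tested. TRC was 730 times the other NT library of its state. The state means were 35.0 ± 51.4 and 1.90 ± 2.87 FPKM (SD, n = 4 and 4), with SDs larger than the means, and the states overlapped. The log2 difference of -1.93 was -0.45 without TRC and -3.08 without GFP. Both values with a library left out are estimates from a model with state and targeted gene as terms, not differences of plain state means.

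Crabp2 (chromosome 3, 87752614 to 87757294), which delivers retinoic acid to the receptors, stayed low. It was at 0.122 FPKM in TRC, 0.317 in GFP, 0.344 in CIC and listed at 0 in FUBP1, and at 0.385 in 7, 0.573 in GFP-D, 1.88 in CIC-D and 0.160 in FUBP1-D. CIC-D was the only library above 1 FPKM.

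The receptors were the most evenly expressed of the 9 genes. Rara (chromosome 11, 98799009 to 98836256) was at 16.8 FPKM in TRC, 12.2 in GFP, 15.7 in FUBP1 and 6.46 in CIC, and at 15.8 in 7, 12.2 in GFP-D, 9.61 in CIC-D and 8.88 in FUBP1-D. The states overlapped and their means were 12.8 ± 4.65 and 11.6 ± 3.14 FPKM (SD, n = 4 and 4). In each state the CIC-targeted library was under both NT libraries. The NT values were 2.60 (TRC) and 1.90 times (GFP) that of CIC, and 1.65 (7) and 1.27 times (GFP-D) that of CIC-D. FUBP1-D was below both NT libraries too, while FUBP1 lay between TRC and GFP. The log2 difference between the states, -0.08, was 0.14 with neither FUBP1-targeted library in the comparison.

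Rarb (chromosome 14, 17263353 to 17407724), the receptor gene whose promoter carries the repeat shown above, was at 9.02 FPKM in TRC, 19.1 in GFP, 15.1 in FUBP1 and 11.2 in CIC. In the differentiating libraries it was at 30.2 in 7, 41.6 in GFP-D, 38.7 in CIC-D and 25.1 in FUBP1-D. Every differentiating library lay above every proliferating one, with the closest pair, FUBP1-D and GFP, 1.32 times apart. The level went from 13.6 ± 4.43 to 33.9 ± 7.59 FPKM, a log2 difference of 1.28. Each library name that occurred in both states showed the same direction, by 2.18 times in GFP, 1.66 times in FUBP1 and 3.45 times in CIC.

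Rarg (chromosome 15, 102065370 to 102087914) was at 3.06 FPKM in TRC, 14.0 in GFP, 3.61 in FUBP1 and 5.23 in CIC, and at 10.7 in 7, 20.0 in GFP-D, 14.0 in CIC-D and 9.41 in FUBP1-D. GFP alone kept the states from being separate: the other 3 proliferating libraries were below all differentiating ones. The means were 6.47 ± 5.09 and 13.5 ± 4.72 FPKM, with a log2 difference of 1.11, or 1.32 without both GFP libraries.

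**Figure D2:**
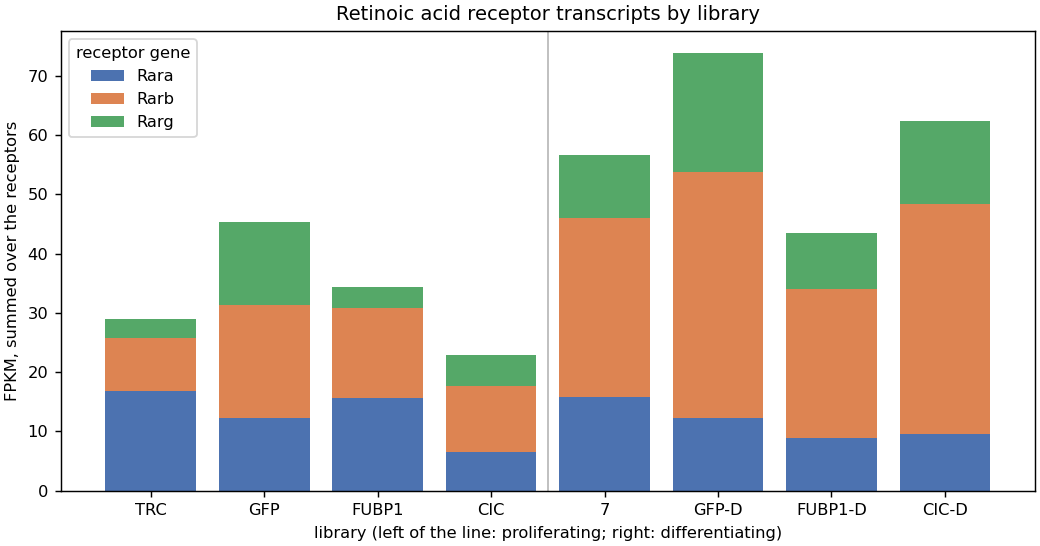
Stacked bars of Rara, Rarb and Rarg in FPKM (vertical axis, from 0) for each library (horizontal axis). Rara makes up 58.2% of the sum in TRC and 15.4% in CIC-D, where Rarb makes up 62.1%.

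The composition of the receptor transcripts thus differed between libraries. Their sum was between 22.9 (CIC) and 45.3 FPKM (GFP) in the proliferating state and between 43.4 (FUBP1-D) and 73.8 (GFP-D) in the differentiating state. Rara took 58.2% of it in TRC, 45.6% in FUBP1, 27.0% in GFP and 28.2% in CIC, and from 15.4% to 27.9% in the differentiating libraries. Rarb took from 31.2% to 48.9% in the proliferating and from 53.3% to 62.1% in the differentiating libraries. The shares of Rarb did not overlap between the states, while those of Rara did (27.0% in GFP and 27.9% in 7).

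Counted over the 9 genes, Dhrs3 and Rarb had all 4 differentiating libraries above all 4 proliferating ones, an order found in 20.1% of the 11968 rows, and Aldh1a3 had the opposite order, found in 17.8%. The summed astrocyte markers, 3 of the 6 singly, and Fabp7 and Msi1 separated the states too (values above), and their part in these differences was not tested. Aldh1a1 was above both NT libraries in both states for the FUBP1 label, as were 11% of all rows, and also for the CIC label, as were 13%. Rara and Crabp1 were below both NT libraries in both states with the CIC label, as were 17.7% of all rows. For Crabp1 the place below GFP and GFP-D rested on listed values of 0 against 0.149 and 0.139 FPKM, all under the filter level. None of the 9 was below both with the FUBP1 label, against 9.33% of all rows. With quantile normalization, no member was above both NT libraries in both states with the FUBP1 label. Since the values chose the genes, these counts describe them and are not evidence about the set.

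In Dhrs3, Rarb and Rarg the NT library named GFP was the highest of its state in both states, which was so for 10.9% of all rows; this count was made after the values were seen. Otx2, a transcription factor of forebrain, midbrain and choroid plexus, was at 13.1 FPKM in GFP and 32.2 in GFP-D and at 0.784 or less in the other 6 libraries. The sum of 5 choroid plexus markers, which contains Otx2, was 18.3 and 34.6 FPKM there and from 0.158 to 7.52 elsewhere, and Otx2 made up most of it in GFP and GFP-D. Folr1 was at 1.81 FPKM in GFP-D and at 0.0695 or less elsewhere. Aqp1 was at 6.41 FPKM in TRC, 5.14 in GFP and 7.39 in FUBP1 and at 2.83 or less in the other 5 libraries. Ttr, the defining marker of that tissue, was at 0.0442 FPKM or less everywhere, and Kcnj13 at 0.196 or less. The 7 markers of meningeal fibroblasts and mesenchyme summed to 4.26 FPKM in GFP and 9.46 in GFP-D, the highest value of each state, against 1.69 to 4.74 elsewhere. Within this list the pericyte marker Pdgfrb was at 5.59 FPKM in GFP-D and 0.407 in GFP and was listed at 0 in the other 6 libraries, and Dcn was at 1.30 in GFP and at 0.0958 or less elsewhere. Foxc1 was between 1.39 and 3.95 FPKM in all libraries, and Col1a1, Col1a2, Lum and Tbx18 stayed under 1 FPKM everywhere. The part of such cells in the levels of the 3 genes was not tested.

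Across the 8 libraries, Dhrs3 correlated with Rarb at Pearson r = 0.96 and with Rarg at 0.93 on the log2 scale, and with Aldh1a3 at -0.87. Rara and Aldh1a1 correlated at -0.77. These are descriptions over 8 points that share the 2 states and the library names. The genes whose pattern over the libraries was most like Dhrs3 were Gdpd5, a glycerophosphodiester phosphodiesterase (r = 0.997, from 2.42 FPKM in CIC to 91.5 in GFP-D), Pla2g7, a secreted phospholipase (r = 0.994, from 0.277 in CIC to 1204 in GFP-D), and Pqlc1 (r = 0.992). Rarb was most like Zkscan2 (r = 0.992), the orphan receptor Gpr146 (r = 0.988) and Plekhb1 (r = 0.983), and Rarg most like the adaptor Nck1 (r = 0.986) and Vps18 (r = 0.982).

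Crabp1 had as its closest genes the transcription factors Foxa2 (r = 0.999) and Pitx1 (r = 0.996). Foxa2 was at 1.66 FPKM in TRC, 1.11 in FUBP1, 0.2 in 7 and 0.469 in FUBP1-D, and was listed at 0 in the other 4 libraries. Pitx1 was at 13.3, 5.37, 0.583 and 2.75 FPKM in the same 4 libraries and at 0.0225 or less in the others. Foxa2, which marks the floor plate, and Pitx1, a regulator of hindlimb and pituitary development, thus stood at or near 0 where Crabp1 did.

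**Figure D3:**
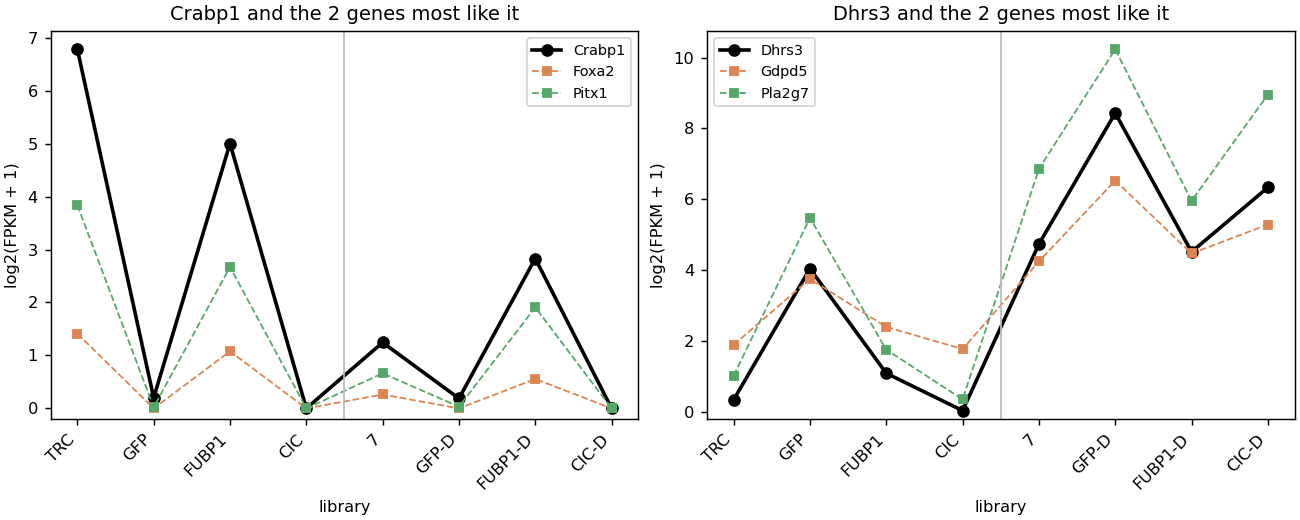
Levels as log2(FPKM + 1) (vertical axis) in the 8 libraries (horizontal axis; the grey line parts proliferating from differentiating) for Crabp1 (left) and Dhrs3 (right), in black, with the 2 genes most like each. Crabp1, Foxa2 and Pitx1 are all at or near 0 in GFP, CIC, GFP-D and CIC-D, and Dhrs3 and Pla2g7 peak in GFP-D at 345 and 1204 FPKM.

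Aldh1a3 was most like the metalloproteinase gene Adam12 (r = 0.991), which was at 51.8 FPKM in FUBP1 and 42.8 in CIC against 8.29 in TRC, 7.21 in GFP and at most 1.29 in the differentiating libraries. The kinase gene Syk (r = 0.983) and Akt1s1 (r = 0.978) followed. Aldh1a1 had weaker matches, Vps52 (r = 0.944), the inhibitor gene Timp4 (r = 0.932, 58.1 FPKM in FUBP1-D) and Pts (r = 0.932). Rara was most like Bend6 (r = 0.971), Tfap4 (r = 0.966) and Ppie (r = 0.952).

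The other genes of the pathway were listed by their known roles, with earlier results of these libraries known, and were tested. The list held 84 genes, of which 55 passed the filter, 24 stayed under 1 FPKM in every library, and 9 of these 24 were listed at 0 throughout. Differentiating and proliferating libraries were compared with limma over all 8 libraries, with state and targeted gene as additive terms and with Benjamini-Hochberg adjustment over 11968 rows. Where FUBP1 or FUBP1-D is left out below, the model fits the other library of that label exactly. Neither then adds to the comparison of states, and the same holds for CIC and CIC-D. Losses within such a pair therefore repeat each other. Of the 55 genes, 16 rose (29.1%, against 21.2% of all rows) and 4 fell (7.27%, against 17.7%). In either direction, 26 (47.3%) had an unadjusted limma p under 0.05, against 49.9% of all rows. The count of 16 was 11 with quantile normalization and 12 with median-of-ratios scaling. Their median log2 difference was 0.30, beside 0.09 over all rows.

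**Figure D4:**
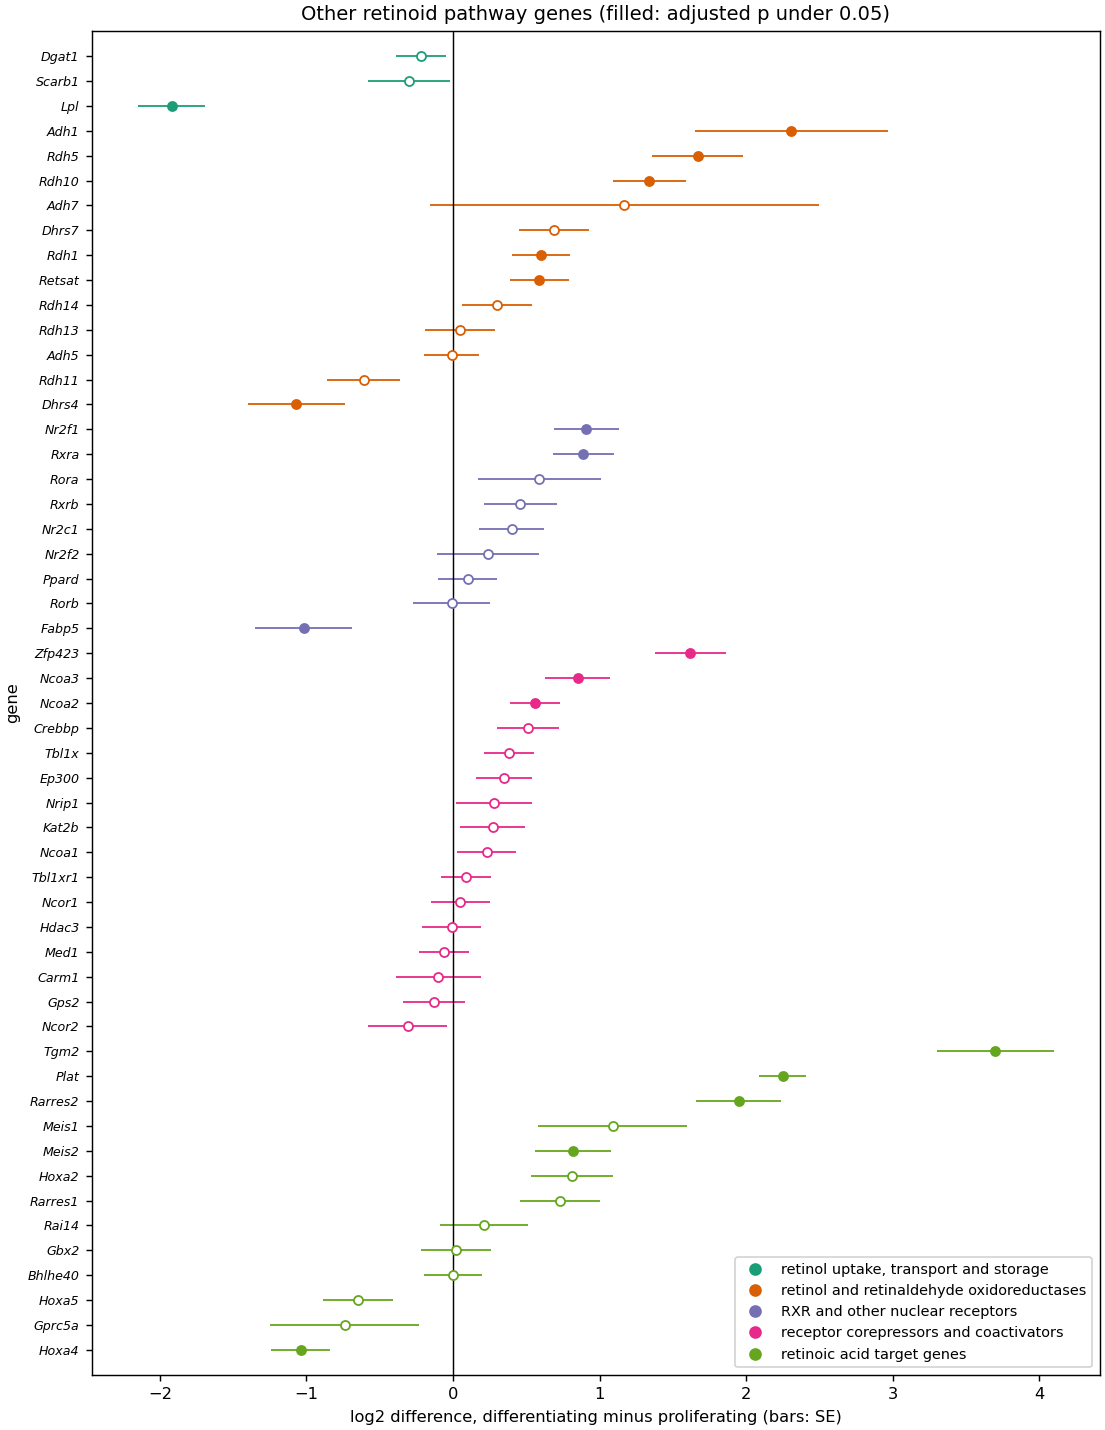
Log2 difference between differentiating and proliferating libraries (horizontal axis; bars are SE, 8 libraries) for other retinoid pathway genes that passed the filter, coloured by list; filled points passed an adjusted p of 0.05. Tgm2, Adh1 and Plat lie furthest to the right, between 2.25 and 3.70, and Lpl furthest to the left at -1.92.

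Transport and storage genes were mostly too low to test, with 4 of 12 fitted, 1 higher and 1 lower. That is 25% each way, against 21.2% and 17.7% of all rows. Lpl, a lipoprotein lipase, fell from 6.08 ± 1.32 to 0.880 ± 0.380 FPKM (limma adjusted p = 0.0015), a log2 difference of -1.92 (SE 0.23). The retinol receptor gene Stra6 reached at most 1.05 FPKM and the plasma carrier gene Rbp4 at most 0.350, and neither passed the filter.

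Retinol and retinaldehyde oxidoreductases rose in 5 (41.7%) and fell in 1 (8.33%) of 12 fitted genes, against 21.2% and 17.7% of all rows. Among the 5 was Rdh1, which passed the filter through the differentiating libraries 7 and GFP-D alone (1.17 and 1.06 FPKM). It was at 0.362 FPKM or less in the proliferating libraries. Its call, also counted in the 16, is therefore not independent of the filter. Rdh10, the main retinol dehydrogenase of the embryo, was at 2.62 FPKM in TRC, 5.93 in GFP, 3.34 in FUBP1 and 4.88 in CIC, and at 15.0 in 7, 12.2 in GFP-D, 11.3 in CIC-D and 9.03 in FUBP1-D. Its log2 difference was 1.34 (SE 0.25, limma adjusted p = 0.0066), with no overlap of the states. Rdh5, a dehydrogenase best known from the visual cycle, rose from 7.87 ± 4.61 to 24.4 ± 3.82 FPKM (adjusted p = 0.0063). The alcohol dehydrogenase gene Adh1 rose from 0.652 ± 0.952 to 8.75 ± 7.18 FPKM (adjusted p = 0.0294), a call that was lost without TRC, FUBP1, CIC, GFP-D, FUBP1-D or CIC-D (adjusted p from 0.0648 to 0.112). Dhrs4, a carbonyl and retinaldehyde reductase, fell from 19.7 ± 8.37 to 8.59 ± 4.01 FPKM (adjusted p = 0.0373), which was lost without any of FUBP1, CIC, 7, GFP-D, FUBP1-D and CIC-D (0.0802 to 0.102).

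The genes of retinoic acid breakdown were at or near 0. Cyp26a1, a direct and sensitive receptor target in many cells, was at most 0.0441 FPKM, and Cyp26b1, the main CYP26 gene of the brain, ran from listed at 0 in FUBP1 to 0.464 in GFP-D. None of the 3 Cyp26 genes passed the filter.

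In the list of RXR and other receptor genes, which also held the carrier gene Fabp5, 2 rose and 1, Fabp5, fell of 9 fitted. These shares were 22.2% and 11.1%, against 21.2% and 17.7% of all rows. Rxra, a heterodimer partner of the RARs, rose from 9.54 ± 2.69 to 18.3 ± 3.01 FPKM (log2 difference 0.89, SE 0.21, limma adjusted p = 0.0153), with 15.4 FPKM or more in every differentiating and 13.5 or less in every proliferating library. The call was lost without FUBP1, CIC, FUBP1-D or CIC-D (adjusted p from 0.0531 to 0.0641). Nr2f1 (COUP-TF1), an orphan receptor that can oppose retinoid receptors, rose from 32.8 ± 3.87 to 63.8 ± 18.6 FPKM (adjusted p = 0.0154), and this was lost without FUBP1 or FUBP1-D (0.0653 and 0.0661). Rxrb was at 17.0 ± 7.83 and 22.7 ± 4.03 FPKM and did not pass the test (log2 difference 0.46, adjusted p = 0.169), and Rxrg reached at most 1.05 FPKM. Fabp5, which can carry retinoic acid to another receptor, PPARD, fell from 604 ± 185 to 312 ± 170 FPKM (adjusted p = 0.0424). Its call was lost with any library left out other than TRC (adjusted p from 0.0545 to 0.147) and with quantile normalization (0.299).

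Corepressor and coactivator genes rose in 3 of 16 (18.8%, against 21.2% of all rows) and none fell (against 17.7%). Zfp423, a zinc-finger cofactor of the retinoid receptors, rose from 1.53 ± 1.30 to 6.36 ± 1.93 FPKM (log2 difference 1.62, SE 0.24, limma adjusted p = 0.0029). The coactivator genes Ncoa3, from 12.4 ± 1.71 to 24.0 ± 8.86 FPKM (adjusted p = 0.0224), and Ncoa2, from 8.62 ± 1.16 to 13.1 ± 0.947 (adjusted p = 0.038), also rose. The Ncoa3 call was lost without TRC, CIC, GFP-D or CIC-D (adjusted p from 0.0574 to 0.0721), and that of Ncoa2 under both rescalings (0.0711 and 0.0866) and without TRC, GFP, FUBP1, 7, GFP-D or FUBP1-D (0.056 to 0.147).

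Of 26 known retinoic acid target genes 14 passed the filter, with 5 higher and 1 lower. These shares were 35.7% and 7.14%, against 21.2% and 17.7% of all rows. Tgm2, which encodes tissue transglutaminase, was at 2.14 FPKM in TRC, 5.21 in GFP, 4.15 in FUBP1 and 3.90 in CIC, and at 62.2 in 7, 91.5 in GFP-D, 22.2 in CIC-D and 103 in FUBP1-D. Its log2 difference was 3.70 (SE 0.40, limma adjusted p = 0.0011), and the lowest differentiating library, CIC-D, was still far above every proliferating one. Plat, the tissue plasminogen activator gene, rose from 91.2 ± 16.2 to 436 ± 60.1 FPKM (log2 difference 2.25, SE 0.16, adjusted p = 5.8e-04), and Rarres2, which encodes the chemoattractant chemerin, from 1.61 ± 0.673 to 9.23 ± 3.48 FPKM (adjusted p = 0.0028). Hoxa4 went the other way, from 14.0 ± 4.19 to 6.12 ± 0.921 FPKM (adjusted p = 0.0079). These genes answer to other signals as well. The part of the astrocyte markers that separated the states, Slc1a3, Aqp4 and Slc1a2, was not tested.

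With the FUBP1 and CIC labels no gene of the pathway list was called. For the FUBP1 label limma called 0 of the 55 genes (1 at an unadjusted p under 0.05) and 0% of all rows (256 of 11968, or 2.14%, at an unadjusted p under 0.05). For the CIC label it called 0 of 55 (6, or 10.9%, at an unadjusted p under 0.05, smallest adjusted p = 0.271) and 0.109% of all rows (1368 of 11968, or 11.4%, at an unadjusted p under 0.05). Each label rests on 1 library per state, and the comparisons share the NT libraries with each other. The median log2 difference of the 55 genes was -0.01 with the FUBP1 and -0.02 with the CIC label, beside 0.02 and -0.04 over all rows.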

How the data were processed

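The authors deposited 1 table of FPKM values, 1 per gene and library. Per the submitters' processing notes, bcl2fastq 2.17, cutadapt, TopHat2 2.0.11, Cufflinks 2.1.1 and build mm9 were used; for settings, annotation and strand, the sources used here give nothing. Positions are given as in the table. Libraries were TruSeq from total RNA, per the labels' protocols. Values were used as deposited, as log2(FPKM + 1), for rows with at least 1 FPKM in 2 libraries (11968 of 20793). limma 3.58.1 (R 4.3.3; additive model of state and targeted gene, mean-variance trend, two-sided) was fitted to all these rows, with Benjamini-Hochberg adjustment and a threshold of 0.05, and was tested on simulated data. Groups come from the treatment labels; replicate numbers follow deposition order and pair nothing. The 9 genes, the 6 lists of pathway genes (84, of which Bco1 and Rbpr2 were matched by RefSeq synonyms) and the marker lists were chosen with earlier results of these data known. Named pathway genes were up to 4 called per list by smallest adjusted p, any called for a label, and 10 fixed ones; likeness was the 3 highest Pearson r. A few genes these rules name are not reported here. Alternatives were 2 pseudocounts, 2 rescalings, 2 filters, no trend, each library left out, group means, a block by library name and NT libraries alone. Promoters are RefSeq windows on GRCm38.p6. Depth is unknown, so no counting interval is given.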

Additional observations from a re-analysis of the deposited data

Results flagged for a closer look

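In 8 of the 50 sets of 4 libraries of one state examined over 31 genes, 1 library stood apart from the other 3 by more than the critical gap of Dixon's test. The gap was taken on FPKM and served only as a rule for listing values, not as a test. The nominal chance rate, about 1 set in 20, cannot be applied to these sets. The genes were chosen with the values or earlier results of these libraries in view, and each set mixes hairpins. Aldh1a1 was at 12.1 FPKM in CIC, against 0.402 to 1.85 in the other proliferating libraries. Dhrs3 was at 15.5 FPKM in GFP, against 0.0256 to 1.13. GFP was also apart in Rxrb, at 28.6 FPKM against 11.9 to 14.7, and in Adh1, at 2.07 against 0.0840 to 0.296. In the differentiating state, Rxrg was at 1.05 FPKM in GFP-D and at 0.0264 or less in the others. Low values stood out for Rxrb in FUBP1-D, at 16.6 FPKM against 24.4 to 24.9, for Plat in CIC-D, at 346 against 456 to 474, and for Fabp5 in TRC, at 327 against 674 to 714.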

How the results depend on the processing

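Of the pathway genes, the main model called 16 higher and 4 lower between states. Quantile normalization gave 11 and 3, and median-of-ratios scaling 12 and 5. With 6 group means it was 10 and 2, with the replicate block by library name (GFP, FUBP1 and CIC, each in both states) 10 and 4, and with the 4 NT libraries alone 2 and 0; without the filter on low values 2 were lower. Leaving out 1 library at a time gave 9 (without FUBP1 or FUBP1-D) to 16 higher and 2 to 4 lower. Without both GFP libraries, an alternative added after seeing the data, it was 13 and 3. The counts for the FUBP1 and CIC labels were 0 in every alternative run. The labels pair no libraries by number; the shared names are the only link, and the block lost 6 higher calls, Ncoa2 and Ncoa3 among them, and Dhrs4 among the lower ones, and gained Rdh11 as lower. Over the 16 called genes that the naming rule takes, 239 of 304 values under alternatives stayed called and none changed direction. Of the 97 differences of the 9 genes under alternatives 80 moved by less than 1 SD of the NT pairs. Those with a library left out came from the additive model. Where the NT libraries lie far apart this SD is wide, so the count does not show stability. All 13 values of Crabp1 were within it, from -3.08 to -0.45. A change of sign was counted only where the main difference exceeded the SD, and none was found. Rara, at -0.08, ran from -0.28 to 0.14. With quantile normalization 0 members were above both NT libraries with the FUBP1 label and 2 with the CIC label (main values 1 and 1). With 1 library left out both counts ran from 1 to 2 (2 without 7, and for FUBP1 also without TRC), and that of members below both with the FUBP1 label from 0 to 3 (3 without TRC, main value 0). A label's count cannot be had without its own libraries. In the model, leaving out either library of a targeted label takes both out of the comparison of states, so such runs repeat each other. As deposited, the median row was 0.09 higher in the differentiating state, and rescaling removed this shift. The unknown depth limits values under 1 FPKM most.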

Other observations

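Hox genes, which retinoic acid is known to switch on along the body axis, reached 1 FPKM in 1 of the 4 clusters alone. Among 11 Hoxa genes, 9 reached 1 FPKM, with Hoxa5 the highest at 55 FPKM in GFP. None of the 10 Hoxb, 9 Hoxc and 9 Hoxd genes did: their highest values were 0.0168 (Hoxb8), 0.0312 (Hoxc6) and 0.0404 FPKM (Hoxd11), and 7, 5 and 6 of them were listed at 0 in every library. Adh7, an alcohol dehydrogenase that can oxidize retinol and is named here after its values were seen, was at 254 FPKM in TRC, 1132 in GFP, 140 in FUBP1 and 10.8 in CIC, and at 59.2 in 7, 736 in GFP-D, 665 in CIC-D and 411 in FUBP1-D. GFP-D was lower than GFP, while CIC-D was higher than CIC and FUBP1-D higher than FUBP1, and the test between states was not passed (log2 difference 1.17, SE 1.33, limma adjusted p = 0.506).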
